A study of Mus musculus with 12 samples.

Results

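The 10 genes described here encode liver enzymes that make glucose from smaller molecules, insulin-signaling proteins, FOXO transcription factors, and a secreted binding protein of insulin-like growth factors. They were chosen by symbol from the deposited mouse liver tumor table, where all 10 were found among 17007 rows: *G6pc*, *Pck1*, *Fbp1*, *Pcx*, *Igfbp1*, *Irs1*, *Irs2*, *Insr*, *Foxo1*, and *Foxo3*. All 10 passed the filter on low values, which left 14397 genes for testing. No measured value entered the choice of these genes, although it was made with earlier results of these data known.

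As background, hepatocytes release glucose during fasting. Pyruvate carboxylase (*Pcx*) and the cytosolic phosphoenolpyruvate carboxykinase (*Pck1*) open the gluconeogenic pathway, fructose-1,6-bisphosphatase (*Fbp1*) carries it past the phosphofructokinase step, and the catalytic subunit of glucose-6-phosphatase (*G6pc*) frees glucose in the endoplasmic reticulum. Insulin binds its receptor (*Insr*), acts through the adaptors IRS1 and IRS2 and PI3K, and activates AKT, for which mTORC2 is an activating kinase. AKT phosphorylates FOXO1 and FOXO3 and keeps them out of the nucleus. In liver, FOXO1 activates *G6pc*, *Pck1*, *Irs2*, and *Igfbp1*, the last of which encodes a secreted binding protein of insulin-like growth factors.

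RNA-Seq was performed on 12 libraries in 4 groups of 3. Normal livers (NL) came from untreated wild-type C57BL/6 mice. The other 9 libraries were liver tumors labeled *Rictor*KO *Tsc2*KO, induced in mice floxed at *Rictor* and *Tsc2* (fl/fl for each) by hydrodynamic tail vein injection of c-MYC, MCL1, and Cre plasmids with the sleeping beauty transposase, so that all tumors share both oncogenes and both labeled deletions by design. Loss of *Rictor* removes mTORC2 and loss of *Tsc2* releases mTORC1. Tumor-bearing mice received vehicle, the ATP-competitive mTOR kinase inhibitor MLN0128, or the rapamycin analog everolimus, an allosteric mTORC1 inhibitor. Per the labels, each drug was given at 1 mg/kg/day by gavage, 6 days a week for 3 weeks, from day 6 after injection, and the mice were sacrificed at 3.7 weeks. Another description of the sequenced tumors gives 3 days of treatment, so the length of exposure behind every drug comparison is uncertain. Vector expression was driven by the EF1α promoter, and Cre by CMV, in hepatocytes that took up the plasmids. Uninjected cells of the host kept both genes. NL and tumors therefore differ in oncogenes, deletions, injection, gavage, and cell makeup together, and these cannot be told apart. The age, sex, and feeding state of each mouse are not given in the sources used here, nor is which drug's solvent the vehicle mice received. The design asks what separates the tumors from NL, and what each inhibitor changes in the tumors.

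The recovered read total per library ran from 17162354 to 25181747, and the 10 genes had between 114 reads (*Irs1*) and 48774 reads (*Pck1*) in a library. Counting error was at most 9.37%, and the spread between mice exceeded it in all but 1 of the 40 pairs of gene and group, *Irs1* in NL (spread 7.27%). The deposited FPKM carry the authors' scaling, with factors from 0.585 to 0.596 in NL and from 1.10 to 1.37 in tumors. Under plain library totals, the median log2 change of all tested genes in vehicle tumors against NL was 0.62 in place of 0.06, and changes are read against that shift below. *Tsc2* measured 5.01 ± 0.445 FPKM in NL and 2.19 ± 0.157 in vehicle tumors (SD, n = 3), and *Rictor* measured 2.07 ± 0.465 and 1.25 ± 0.230. With MLN0128 and everolimus *Tsc2* measured 3.39 ± 0.575 and 2.82 ± 0.0451 FPKM, and *Rictor* 1.89 ± 0.287 and 1.71 ± 0.192, which overlapped NL. The vehicle tumors differed from NL under plain library totals by −0.19 for *Tsc2* and 0.12 for *Rictor* (adjusted p = 0.221 and 0.464, limma). These levels therefore do not check the labeled deletions, since a gene-level FPKM also counts exons outside a floxed part and RNA of uninjected cells. All 7 hepatocyte markers were detected in every library, with summed FPKM from 82219 to 101126 in NL and from 1807 to 7882 in tumors. MLN0128 replicates 1 and 2 held *Xist*, the RNA of the inactive X chromosome, at 191 and 155 FPKM, and no other library exceeded 0.0699, so these 2 mice differed from the others in X-chromosome makeup. Everolimus replicate 2 had the highest summed hepatocyte and macrophage markers of the tumors, at 7882 and 132 FPKM. Values without these libraries are given below where they change a result. Without the 2 *Xist* libraries 1 MLN0128 library remains, so a lost pass there does not tie a result to those mice.

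Promoters were read for 9 of the 10 genes, while *Insr* had no entry. The 250 bases upstream of the RefSeq start (GRCm38.p6) are shown for the 4 genes whose promoters are textbook subjects of insulin or cAMP control and that differed in tumors from NL. Capitals mark 3 short motifs, searched on both strands: the insulin response core, spelled CAAAACA, the cAMP response core, spelled TGACG, and the TATA box, spelled TATAAA. On the opposite strand these are read in reverse complement. The windows are chr11:101367466-101367715 (+) for *G6pc*, chr2:173152823-173153072 (+) for *Pck1*, chr11:7197537-7197786 (+) for *Igfbp1*, and chr8:11008930-11009179 (−) for *Irs2*, each printed in the direction of transcription.
G6pc: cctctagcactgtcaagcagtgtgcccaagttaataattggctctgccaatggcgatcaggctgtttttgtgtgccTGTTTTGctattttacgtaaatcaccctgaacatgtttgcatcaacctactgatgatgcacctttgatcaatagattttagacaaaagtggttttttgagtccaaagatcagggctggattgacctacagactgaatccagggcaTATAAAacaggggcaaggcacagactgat
Pck1: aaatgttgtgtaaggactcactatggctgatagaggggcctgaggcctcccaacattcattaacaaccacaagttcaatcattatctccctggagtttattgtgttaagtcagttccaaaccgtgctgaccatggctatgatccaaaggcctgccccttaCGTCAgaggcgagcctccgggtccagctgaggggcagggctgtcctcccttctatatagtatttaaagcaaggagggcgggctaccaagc
Igfbp1: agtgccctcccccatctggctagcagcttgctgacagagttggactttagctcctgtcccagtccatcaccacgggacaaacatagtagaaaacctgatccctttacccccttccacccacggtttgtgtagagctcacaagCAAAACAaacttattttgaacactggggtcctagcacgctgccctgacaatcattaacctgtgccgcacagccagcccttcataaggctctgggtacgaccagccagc
Irs2: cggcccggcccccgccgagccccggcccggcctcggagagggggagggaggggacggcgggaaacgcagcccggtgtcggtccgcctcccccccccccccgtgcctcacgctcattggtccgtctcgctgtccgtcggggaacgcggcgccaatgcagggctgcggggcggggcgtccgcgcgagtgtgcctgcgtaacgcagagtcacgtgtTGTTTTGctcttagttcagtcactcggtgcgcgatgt

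In *G6pc*, the insulin response core lay on the reverse strand at −174 to −168 and the TATA box at −29 to −24. *Pck1* held the cAMP core on the reverse strand at −90 to −86, within its known cAMP response element. *Igfbp1* held the insulin response core on the forward strand at −108 to −102. *Irs2* held it on the reverse strand at −37 to −31, next to an E-box (spelled CACGTG) at −44 to −39. Of all 32851 RefSeq promoter windows of this length, 5.56% held the insulin response core, 17.8% the cAMP core, 12.4% the TATA box, and 6.02% the E-box. The FOXO core, spelled GTAAACA and sought on both strands, stood in 3.17% of all windows and in none of these genes' windows. *Irs1* held the insulin response core 2 times on the reverse strand, at −111 to −105 and −32 to −26. The first copy overlaps an E-box at −115 to −110, which in turn overlaps a reverse cAMP core at −118 to −114. The windows of *Foxo1* and *Fbp1* held none of the 5 motifs. A match describes letters in a window and says nothing of binding in these livers.

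In the vehicle tumors, *Pck1*, *Fbp1*, *G6pc*, and *Pcx* were lower than in NL on the deposited scale, and *Igfbp1* and *Irs2* were higher. Against a fold change of 1.5 (limma's treat test), 5 of the 10 genes were called, 3 lower and 2 higher, beside 32.7% of all genes tested. By limma's moderated test, which asks for any change, 9 of 10 passed, beside 69.0% of all genes, and in 9 of 10 the 3 tumors did not overlap the 3 livers, beside 74.1% of all genes. The moderated passes were 2 higher and 7 lower, and under plain library totals 2 higher and 3 lower. Fewer cells of a type and less RNA per cell cannot be told apart in such tissue RNA.

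**Figure D1:**
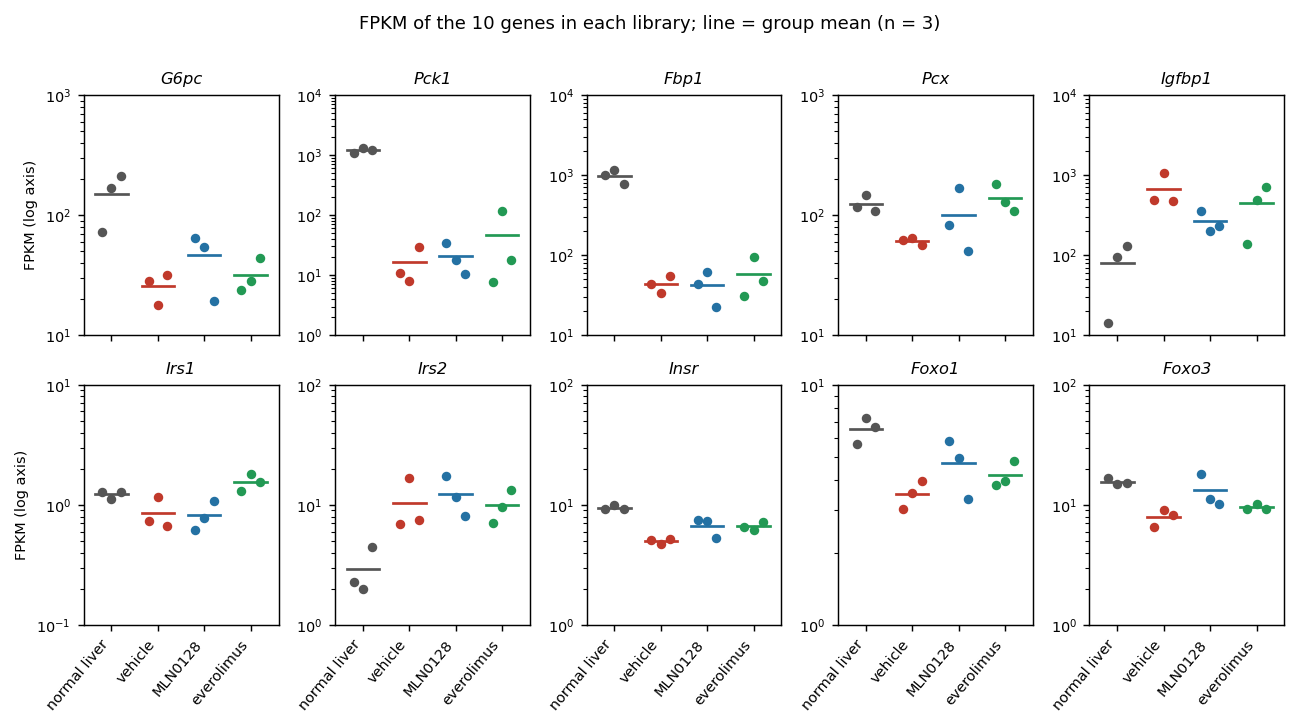
FPKM (log axis) of the 10 genes in each library by group, with a line at each group mean (n = 3). *Pck1* sat at 1070 FPKM or above in the 3 normal livers and at 116 or below in the 9 tumors, while *Igfbp1* sat at 130 or below in normal livers and at 136 or above in tumors.

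*Pck1* showed the largest difference. This gene (chr2:173153048-173159273, + strand, protein coding) measured 1070, 1290, and 1230 FPKM in NL and 11, 8.02, and 29.7 FPKM in vehicle tumors. The mean fell 73.7-fold, a log2 change of −6.32 ± 0.78 (SE; treat adjusted p = 6.08e-05, limma). *Pck1* was the most abundant of the 10 genes in NL and the fifth in vehicle tumors.

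*Fbp1* (chr13:62864753-62888282, − strand) measured 1010, 1160, and 778 FPKM in NL against 43.7, 33.6, and 54.6 in vehicle tumors. The groups lay far apart, with a mean 22.4-fold lower in tumors and a log2 change of −4.46 ± 0.41 (treat adjusted p = 7.79e-06, limma). *G6pc* (chr11:101367561-101377903, + strand) measured 72.1, 168, and 211 FPKM in NL and 28.1, 17.9, and 31.6 in vehicle tumors. The NL values spread from 72.1 to 211 FPKM, with replicate 1 the lowest liver, and did not overlap the tumors. The log2 change of *G6pc* was −2.40 ± 0.47 (treat adjusted p = 0.0053, limma), and under plain library totals it was −1.47 and was no longer called.

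*Pcx* (chr19:4510472-4621752, + strand), the mitochondrial entry enzyme that also refills the citric acid cycle, differed least. It measured 117, 148, and 108 FPKM in NL and 61.7, 64.1, and 56.4 in vehicle tumors, without overlap. The log2 change of −1.01 ± 0.34 passed the moderated test (adjusted p = 0.0204, limma) but not the test against 1.5-fold. It lost that pass without NL replicate 2 or vehicle replicate 3 (adjusted p = 0.0695 and 0.0558), and under plain library totals it was −0.08. The order of the 4 enzymes by FPKM thus went from *Pck1*, *Fbp1*, *G6pc*, *Pcx* in NL to *Pcx*, *Fbp1*, *G6pc*, *Pck1* in vehicle tumors. In NL the *Pck1* and *Fbp1* ranges overlapped at 1070 to 1290 and 778 to 1160 FPKM, as did those of *G6pc* and *Pcx*. In vehicle tumors *G6pc* and *Pck1* overlapped at 17.9 to 31.6 and 8.02 to 29.7.

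The hepatocyte markers moved in the same direction as these enzymes. All 7 were lower in vehicle tumors by the moderated test (6 under plain library totals), beside 69.0% of all genes that passed. By treat 6 of 7 were lower, beside 32.7% of all genes called. Their median log2 change was −4.68, with values from −1.23 (*Cps1*, urea cycle) to −8.93 (*Cyp2e1*, a cytochrome P450). *Alb* (albumin) changed by −5.50. The part of hepatocyte content in these changes was not tested.

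**Figure D2:**
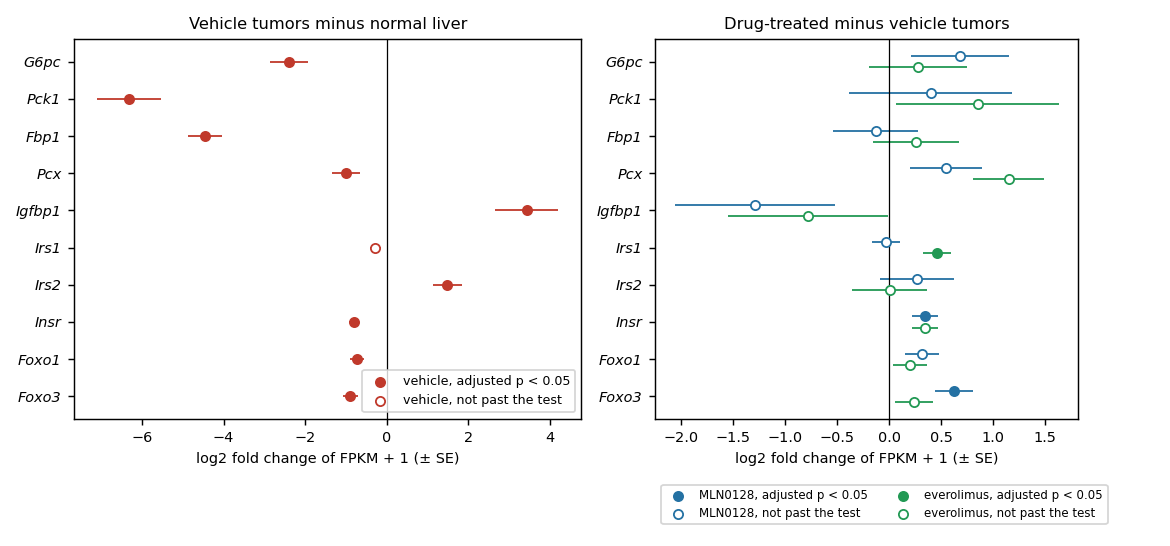
Log2 fold change of FPKM + 1 (± SE of the fit) for each gene in vehicle tumors minus normal liver (left) and in drug-treated minus vehicle tumors (right); filled points had a moderated adjusted p under 0.05. On the left the changes reach −6.32 for *Pck1* and 3.44 for *Igfbp1*, and those of *Pcx*, *Insr*, *Foxo1*, and *Foxo3* are −0.08, 0.014, 0.038, and −0.04 under plain library totals; on the right only *Insr* and *Foxo3* with MLN0128 and *Irs1* with everolimus are filled.

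The isozymes of 3 of these enzymes went the other way. *Pck2*, the mitochondrial phosphoenolpyruvate carboxykinase, measured 1.12, 1.53, and 0.908 FPKM in NL and 24.4, 32.2, and 20 in vehicle tumors, a log2 change of 3.59 ± 0.35 (adjusted p = 2.94e-06, limma). *Fbp2*, the muscle fructose bisphosphatase, measured 0.126, 0.185, and 0.0652 FPKM in NL and 6.13, 6.68, and 7.80 in vehicle tumors, a log2 change of 2.80 ± 0.32 (adjusted p = 1.22e-05, limma). Its NL values stand for only 1 to 3 reads per library, against 193 to 267 in vehicle tumors. *G6pc3*, the ubiquitous glucose-6-phosphatase, measured 1.75, 3.06, and 2.76 FPKM in NL and 6.60, 7.22, and 9.26 in vehicle tumors, a log2 change of 1.31 ± 0.16 (adjusted p = 2.23e-05, limma). Tumors lay above livers in every library for all 3 isozymes. In vehicle tumors *Pck2* at 25.5 ± 6.18 FPKM and *Pck1* at 16.2 ± 11.8 FPKM (SD, n = 3) overlapped, whereas in NL *Pck1* exceeded *Pck2* in every liver. *G6pc3* was named after its values were seen, to account for every higher gene of the list below.

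**Figure D3:**
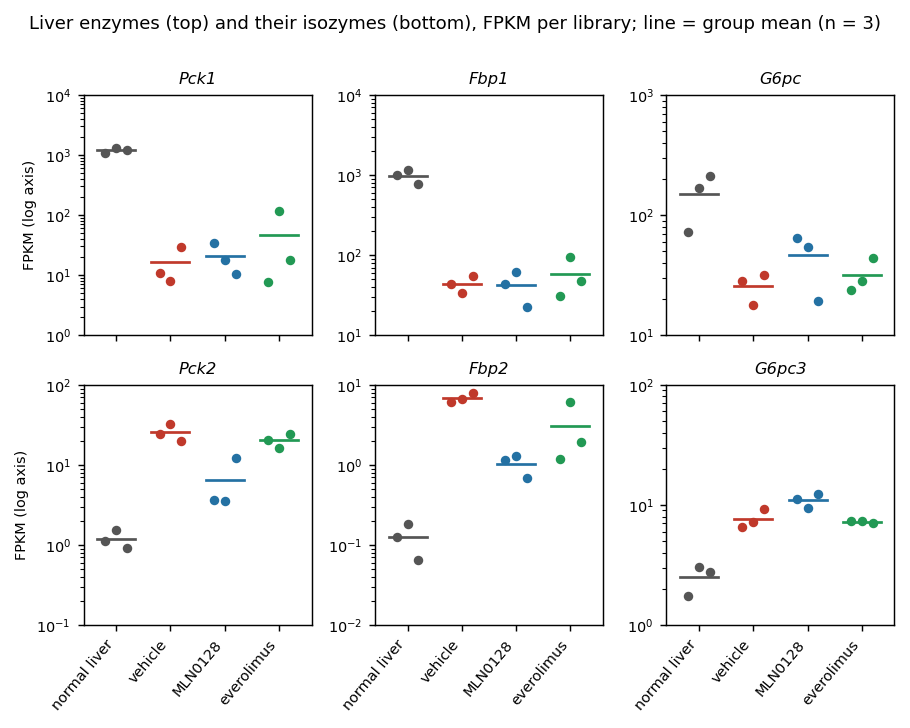
FPKM (log axis) per library of *Pck1*, *Fbp1*, and *G6pc* (top) and of their isozymes *Pck2*, *Fbp2*, and *G6pc3* (bottom), with lines at group means (n = 3). All 9 tumors lie below the 3 livers in the top row and above them in the bottom row.

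Among 17 other genes of gluconeogenesis and its substrate supply, 11 fell, 3 rose, and 3 did not pass the moderated test, which 69.0% of all genes passed, with a median log2 change of −0.99 beside 0.06 for all genes. Under plain library totals 6 rose and 6 fell, with a median of −0.06 beside 0.62. The 3 that rose were the isozymes above. The largest falls were those of *Aqp9*, the hepatocyte glycerol channel (−4.35 ± 0.33), *Sds*, serine dehydratase (−3.21 ± 0.50), and *Tat*, tyrosine aminotransferase (−3.09). *Aqp9* measured 180, 188, and 142 FPKM in NL and 7.92, 5.08, and 9.67 in vehicle tumors. *Slc37a4*, the glucose-6-phosphate transporter that works with *G6pc*, was chosen for that role after its values were seen, and fell by 0.99 on the deposited scale but changed by −0.061 under plain library totals.

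Of 16 regulators of gluconeogenesis, again beside 69.0% of all genes, 11 fell, 1 rose, and 4 did not pass, with a median log2 change of −1.25. Under plain library totals 6 rose and 7 fell (median −0.34). *Nr0b2*, the repressor SHP, measured 21.4, 63.7, and 34.7 FPKM in NL and 1.32, 5.03, and 1.63 in vehicle tumors (log2 change −3.49 ± 0.46). *Cebpa*, a hepatocyte transcription factor, changed by −2.99 ± 0.26, and *Ppara*, the fasting nuclear receptor, by −2.10 ± 0.28. The gene that rose, named after its values were seen, was *Sik1*, a kinase that restrains CREB coactivators, by 1.92. *Ppargc1a*, the coactivator PGC-1α, was also named after its values were seen and measured 2.41 to 4.64 FPKM in NL and 2.50 to 4.32 in vehicle tumors, ranges that overlap.

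In the insulin and FOXO group, *Igfbp1* (chr11:7197782-7202546, + strand) rose most. It measured 14.2, 95.9, and 130 FPKM in NL and 483, 1070, and 474 in vehicle tumors, where it was the most abundant of the 10 genes. In fold terms the livers differed among themselves by more than the tumors did, with replicate 1 at the lowest level. The log2 change was 3.44 ± 0.77 (treat adjusted p = 0.00686, limma), 2.48 without NL replicate 1, and 4.03 without NL replicate 3, and it passed the moderated test with any library left out. NL replicate 1 also had the lowest *G6pc*, and NL replicate 3 the highest of both genes.

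*Irs2* (chr8:10984681-11008458, − strand), the insulin-repressed adaptor, measured 2.30, 2.01, and 4.47 FPKM in NL and 6.99, 16.7, and 7.46 in vehicle tumors. The groups did not overlap, and vehicle replicate 2 was highest in both *Irs2* and *Igfbp1*. The log2 change of 1.49 ± 0.36 was called (treat adjusted p = 0.0434, limma) but lost that call without NL replicate 1 or 2, vehicle replicate 2, MLN0128 replicate 2, or everolimus replicate 2. Its moderated test passed in all 19 other settings of the analysis (filters, scaling, pseudocount, fit, and each library left out), at adjusted p from 0.000119 to 0.0145. *Irs1* (chr1:82233101-82291416, − strand) was the lowest of the 10 genes in every group, at 1.28, 1.13, and 1.29 FPKM in NL and 0.740, 1.16, and 0.667 in vehicle tumors. Those groups overlap, and the log2 difference of −0.28 did not pass (95% interval −0.57 to 0.02, adjusted p = 0.0846, limma). In NL the mean *Irs2* level was 2.93 ± 1.34 FPKM against 1.23 ± 0.0896 for *Irs1*, and in vehicle tumors 10.4 ± 5.48 against 0.856 ± 0.266 (SD, n = 3).

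The receptor and both FOXO factors were lower in vehicle tumors on the deposited scale. *Insr* (chr8:3122061-3279617, − strand) measured 9.24, 9.92, and 9.32 FPKM in NL and 5.13, 4.76, and 5.16 in vehicle tumors, a log2 change of −0.80 ± 0.12 (adjusted p = 0.000116, limma). *Foxo1* (chr3:52268336-52353221, + strand) measured 5.65, 7.26, and 6.68 FPKM against 3.05, 3.55, and 3.98, a change of −0.73 ± 0.17 (adjusted p = 0.00197, limma). *Foxo3* (chr10:42181841-42276755, − strand) measured 16.7, 14.9, and 15.2 FPKM against 6.58, 9.06, and 8.31, a change of −0.89 ± 0.18 (adjusted p = 0.000949, limma). None of the 3 was called against 1.5-fold, and under plain library totals the changes were 0.01, 0.04, and −0.04, none of which passed. Whether these transcripts were lower than in NL therefore depends on the scaling, whereas *Pck1*, *Fbp1*, *Igfbp1*, and *Irs2* were called under both.

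*Foxo4* differed from *Foxo1* and *Foxo3*. It measured 15.6, 15.5, and 14.1 FPKM in NL and 54.1, 52.7, and 50 in vehicle tumors, with little spread in either group and a log2 change of 1.73. In NL the levels of *Foxo4* and *Foxo3* were alike, at 15.1 ± 0.839 and 15.6 ± 0.964 FPKM (SD, n = 3), while in vehicle tumors *Foxo4* exceeded *Foxo3* in every library. Among 24 tested genes from the insulin receptor to AKT, 10 rose, 8 fell, and 6 did not pass (median log2 change 0.27). These counts lay near the 69.0% of all genes that passed, whose median was 0.06. Under plain library totals 17 rose and 2 fell (median 0.97), beside 8821 higher and 2182 lower of all 14397 genes (median 0.62). The largest rises were those of *Grb10*, an adaptor that binds and restrains the insulin receptor (3.92 ± 0.35), *Trib3*, a pseudokinase that binds AKT (2.89 ± 0.38), and *Sgk1*, an AKT-related kinase activated by mTORC2 that also phosphorylates FOXO proteins (1.78 ± 0.29). *Grb10* went from 1.2, 1.19, and 0.622 FPKM in NL to 28.7, 28.0, and 30.4 in vehicle tumors.

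Of 18 other FOXO targets, 10 rose, 4 fell, and 4 did not pass, near the 69.0% of all genes that passed, with a median log2 change of 0.51. Under plain library totals 12 rose and 2 fell (median 1.19), beside a median of 0.62 for all genes. *Pdk4*, the kinase that shuts pyruvate dehydrogenase, rose from 0.898, 1.14, and 1.56 FPKM in NL to 29.5, 56.2, and 39.4 in vehicle tumors (4.24 ± 0.52). *Apoc3*, a hepatocyte apolipoprotein, fell by 4.97 and *Cat*, catalase, by 2.75. The 4 genes that fell also included *Mttp* at −0.86 and *Sod2* at −0.79, named after their values were seen; under plain totals these were 0.054 and 0.11. Of 12 insulin-induced lipogenic genes, 8 fell, 1 rose, and 3 did not pass (median −1.23). With plain library totals 3 rose and 5 fell (median −0.32). *Thrsp* (−5.23 ± 0.57) and *Scd1* (−4.83 ± 0.65) fell most, and the gene that rose, named after its values were seen, was *Fasn*, fatty acid synthase, by 0.47.

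**Figure D4:**
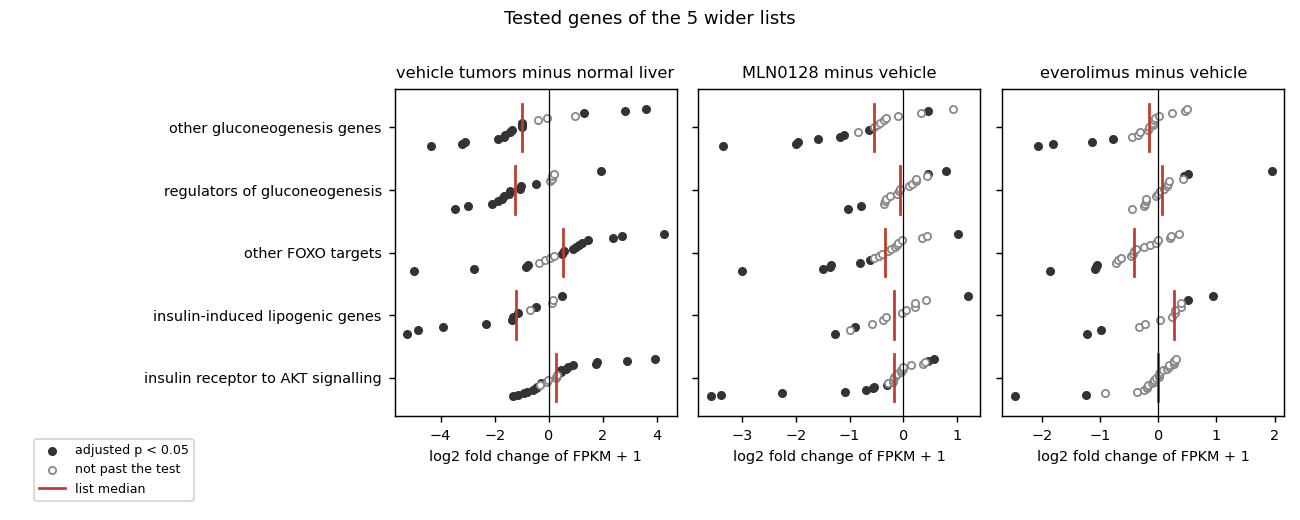
Log2 fold change of FPKM + 1 for each tested gene of the 5 wider lists in 3 comparisons; filled points had a moderated adjusted p under 0.05 and red lines mark list medians. In vehicle tumors minus normal liver the medians run from −1.25 for regulators of gluconeogenesis to 0.51 for other FOXO targets, and under plain library totals they are −0.34 and 1.19.

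In MLN0128-treated tumors *Foxo3* and *Insr* were higher than with vehicle, and none of *G6pc*, *Pck1*, *Fbp1*, and *Pcx* changed detectably. By treat, 0 of 10 were called against vehicle, beside 2.13% of all genes. By limma's moderated test 2 of 10 passed, beside 32.0%, both higher, and the same 2 had an unadjusted p under 0.05. In 3 of 10 the groups did not overlap, beside 45.5%. *Foxo3* measured 18.2, 11.2, and 10.2 FPKM with MLN0128 against 6.58 to 9.06 with vehicle, a log2 change of 0.63 ± 0.18 (adjusted p = 0.0215, limma). *Insr* measured 7.47, 7.39, and 5.31 FPKM against 4.76 to 5.16, a change of 0.35 ± 0.12 (adjusted p = 0.0497, limma).

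*Insr* was higher in MLN0128 replicates 1 and 2, the libraries with *Xist* RNA, than in replicate 3. Replicate 3 also had the highest scaling factor of the 12 libraries (1.37) and the lowest summed hepatocyte markers of the tumors (1807 FPKM). For *Foxo3* mainly replicate 1 stood apart, at 18.2 FPKM, while replicates 2 and 3 lay close together at 11.2 and 10.2. From replicate 3 alone, which was assumed to vary like the other groups, the changes were 0.33 for *Foxo3* (adjusted p = 0.240, limma) and 0.07 for *Insr* (adjusted p = 0.788, limma). Without vehicle replicate 1 or MLN0128 replicate 1, *Foxo3* did not pass (adjusted p = 0.0866 and 0.0663, limma). *Insr* passed in 5 of the 19 other settings and in 1 of 12 that left out a library, that without MLN0128 replicate 3. *Foxo1* split as *Insr* did, at 5.81, 4.98, and 3.36 FPKM against 3.05 to 3.98 with vehicle. Its difference of 0.32 did not pass (95% interval −0.05 to 0.68). The parts of X-chromosome makeup, scaling, and hepatocyte content in these differences were not tested and cannot be told apart here.

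*Igfbp1* measured 361, 202, and 228 FPKM with MLN0128, each below the lowest vehicle tumor at 474. The fitted difference of −1.29 ± 0.77 nevertheless did not pass (95% interval −2.98 to 0.40, adjusted p = 0.223, limma), with 1 error shared by all 4 groups. In a fit to these groups alone the same difference passed (SE 0.38, adjusted p = 0.0456, limma). *G6pc* measured 64.5, 54.7, and 19.2 FPKM, with replicates 1 and 2 above and replicate 3 within the vehicle range. Its difference of 0.68 had a 95% interval from −0.35 to 1.71, and was −0.37 without the *Xist* libraries. *Pcx* measured 83.5, 168, and 50.1 FPKM, a difference of 0.55 (95% interval −0.21 to 1.30), and −0.27 without those libraries. *Pck1* at 34.6, 17.7, and 10.5 FPKM and *Fbp1* at 43.7, 61.4, and 22.7 overlapped the vehicle tumors, with differences of 0.40 (95% interval −1.31 to 2.11) and −0.13 (−1.02 to 0.77). *Irs2* at 17.4, 11.6, and 8.02 FPKM and *Irs1* at 0.616, 0.775, and 1.07 overlapped as well. These intervals leave room for changes of more than 1.5-fold in most of the 10 genes.

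Everolimus also left most of the 10 genes without a detectable change. By treat 0 of 10 were called, beside 0.604% of all genes. By limma's moderated test 1 of 10 passed, beside 9.83%, and 3 of 10 had an unadjusted p under 0.05, all higher. In 4 of 10 the groups did not overlap, beside 32.4%. *Irs1* measured 1.30, 1.81, and 1.54 FPKM, each above the highest vehicle tumor at 1.16, a log2 change of 0.46 ± 0.13 (adjusted p = 0.0494, limma). That pass held in 3 of 19 other settings, and in those that left out a library, only without vehicle replicate 2 or MLN0128 replicate 3; without everolimus replicate 2 the change was 0.39 (adjusted p = 0.108, limma). On the log2(FPKM + 1) scale the change of so low a gene is understated, and the mean was 1.81 times that of vehicle.

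*Pcx* measured 180, 128, and 109 FPKM with everolimus, all above the vehicle range of 56.4 to 64.1. On the deposited scale they overlapped NL (0.14), and under plain library totals they were higher than NL by 1.08 (adjusted p = 0.00685, limma). The change of 1.15 ± 0.34 missed the threshold (adjusted p = 0.0553, limma) and passed in 6 of 19 other settings, among them the fit to these groups alone (adjusted p = 0.025) and plain library totals (adjusted p = 0.034). *Insr* measured 6.5, 6.22, and 7.26 FPKM, also above every vehicle tumor, with a change of 0.35 ± 0.12 (adjusted p = 0.0961, limma). *Foxo3* at 9.33, 10.2, and 9.16 FPKM lay just above the vehicle tumors (0.24, 95% interval −0.16 to 0.64).

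*Pck1* measured 7.70, 116, and 18.2 FPKM with everolimus, and *Fbp1* 30.5, 96.0, and 47.3, with replicate 2 the highest tumor of all in both. That library also had 4860 FPKM of *Alb*, against 482 to 1840 in the other tumors. Without it the difference from vehicle went from 0.85 to −0.21 for *Pck1* and from 0.26 to −0.18 for *Fbp1*, neither of which passed either way. *G6pc* at 23.7, 28.2, and 43.6 FPKM, *Igfbp1* at 136, 490, and 720, *Irs2* at 7.06, 9.59, and 13.2, and *Foxo1* at 3.82, 3.96, and 4.83 overlapped vehicle. The interval for *Igfbp1* ran from −2.47 to 0.91.

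The inhibitors differ in structure and in the complexes they reach. MLN0128 is a small ATP-site inhibitor and everolimus a macrolide that acts through FKBP12, and the labeled dose and schedule were the same. Compared directly, 0 of 10 genes were called by treat, beside 0.0417% of all genes, and 1 of 10 passed limma's moderated test, beside 9.53%. In 1 of 10 the groups did not overlap, beside 27.7%. The gene was *Irs1*, lower with MLN0128 than with everolimus by 0.49 ± 0.13 on the log2 scale, at 0.616 to 1.07 against 1.30 to 1.81 FPKM (adjusted p = 0.0422, limma). It passed in 5 of 19 other settings, and without both *Xist* libraries the difference was −0.30. Without those libraries *Pcx* went from −0.61 (adjusted p = 0.287, limma) to −1.42. For *Insr* the difference between the drugs was 0.00 (95% interval −0.27 to 0.27), the narrowest of the 10. For *Pck1*, *Igfbp1*, and *G6pc* the intervals ran from −2.16 to 1.26, from −2.20 to 1.18, and from −0.63 to 1.43, and take in differences of more than 1.5-fold either way for all 3.

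With MLN0128, 7 of the 17 other gluconeogenesis genes fell, 1 rose, and 9 did not pass, beside 32.0% of all genes that passed. Without both *Xist* libraries 8 fell and 0 rose, beside 12.2% of all genes. *Tat* fell from 150, 75.4, and 185 FPKM with vehicle to 14.0, 12.7, and 8.62 (−3.36 ± 0.47). *Pck2* fell to 3.69, 3.56, and 12.1 FPKM (−1.99 ± 0.35) and *Fbp2* to 1.15, 1.28, and 0.683 (−1.96 ± 0.32), both called by treat (adjusted p = 0.0435 and 0.0388, limma). Neither was called without the *Xist* libraries, where *Pck2* changed by −0.99 (moderated adjusted p = 0.047) and *Fbp2* by −2.22 (adjusted p = 0.0213, limma). With everolimus 4 of 17 fell and none rose, beside 9.83% of all genes, among them *Tat* (−2.07), *Ldhb*, a lactate dehydrogenase subunit (−1.81), and *Fbp2* (−1.14, adjusted p = 0.048). *Pck2* with everolimus measured 20.3, 16.2, and 24.2 FPKM, against 20 to 32.2 with vehicle. Its direct difference between the drugs was −1.68 ± 0.35 (adjusted p = 0.0161, limma), and −0.68 without the *Xist* libraries. *Fbp2* did not differ detectably between the drugs (−0.82, adjusted p = 0.132, limma).

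*Foxo4* and *Sgk1* fell with both inhibitors, and *Trib3* with MLN0128. *Foxo4* fell from 54.1, 52.7, and 50 FPKM with vehicle to 8.51, 9.50, and 12.6 with MLN0128 (−2.27 ± 0.17; treat adjusted p = 0.000244, limma) and to 18.6, 18.7, and 27.9 with everolimus (−1.25 ± 0.17; adjusted p = 0.00118, limma). The direct difference was −1.01 ± 0.17 (adjusted p = 0.00859, limma), and −0.72 without the *Xist* libraries. *Sgk1* fell from 27.9, 22.8, and 27.6 FPKM to 1.69, 1.47, and 1.47 with MLN0128 (−3.41) and to 1.66, 5.79, and 5.46 with everolimus (−2.47). *Trib3* fell from 35, 49.5, and 35.2 FPKM to 2.30, 2.32, and 2.50 with MLN0128 (−3.58) and measured 15.1, 17.7, and 31.8 with everolimus. Its direct difference was −2.67 ± 0.38 (adjusted p = 0.00639, limma), and −2.62 without the *Xist* libraries. *Pik3cb*, a PI3K catalytic subunit, also differed between the drugs (−0.72 ± 0.11), by −0.62 without those libraries. In all, 8 of 24 tested genes fell and 2 rose with MLN0128 (7 and 3 under plain library totals), beside 32.0% of all genes, and 2 fell and 0 rose with everolimus, near its 9.83%. Without the *Xist* libraries 5 fell and 1 rose with MLN0128, beside 12.2%. MLN0128 replicate 3 lay with replicates 1 and 2 for *Sgk1*, *Trib3*, and *Foxo4*, unlike for *Insr*, *Foxo1*, and *G6pc*.

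**Figure D5:**
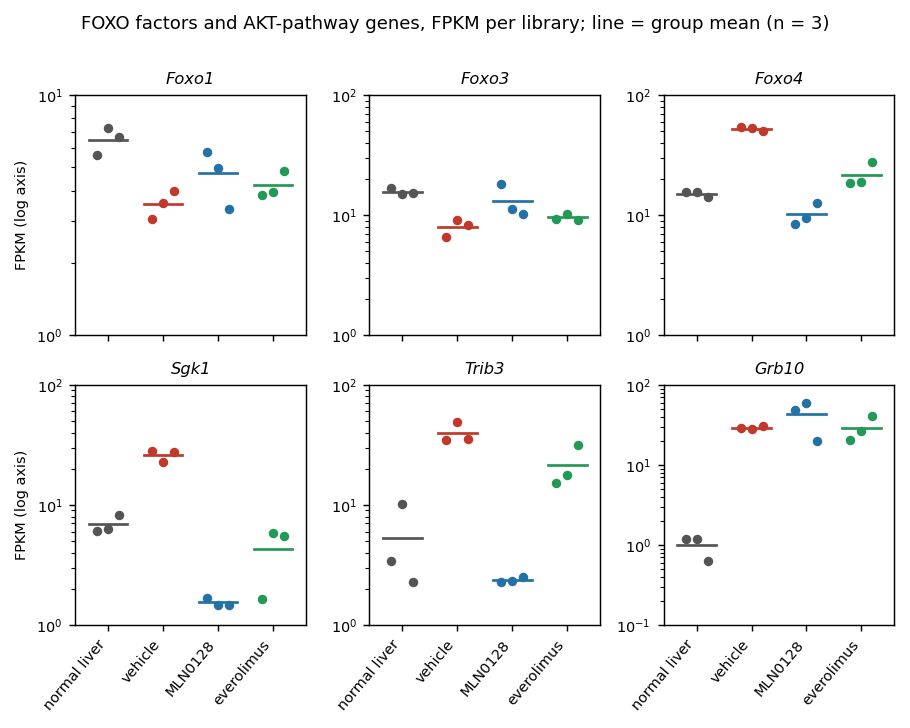
FPKM (log axis) per library of *Foxo1*, *Foxo3*, *Foxo4*, *Sgk1*, *Trib3*, and *Grb10*, with lines at group means (n = 3). *Foxo4* and *Sgk1* are above the livers in every vehicle tumor and below every vehicle tumor in all 6 drug-treated tumors, whereas *Grb10* is at 19.7 FPKM or above in all 9 tumors and at 1.2 or below in livers.

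Among the 18 other FOXO targets, 6 fell and 1 rose with MLN0128 (6 and 2 under plain library totals), and 4 fell and 0 rose with everolimus, beside 32.0% and 9.83% of all genes, with medians of −0.34 and −0.43. Without the *Xist* libraries the median with MLN0128 was −0.71, beside −0.03 for all genes. *Pdk4* measured 7.16, 3.13, and 2.99 FPKM with MLN0128 (−3.01 ± 0.52) and 3.02, 17.6, and 18.6 with everolimus (−1.86 ± 0.52), against 29.5 to 56.2 with vehicle. *Cited2*, a CBP/p300-binding regulator, fell by 1.49 and by 1.07, *Gadd45a*, a stress-response gene, fell by 1.36 with MLN0128, and *Ccng2*, cyclin G2, fell by 1.09 with everolimus. *Bcl2l11*, which encodes the proapoptotic protein BIM, was higher with MLN0128, at 8.49, 5.88, and 5.07 FPKM against 3.23, 4.05, and 3.67 with everolimus, a direct difference of 0.66 ± 0.16. *Fbxo32*, the ubiquitin ligase atrogin-1, also differed between the drugs by 0.68 ± 0.17. Without the *Xist* libraries these differences were 0.39 and 0.48.

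Of the 16 regulators, 2 fell and 2 rose with MLN0128 and 3 rose with everolimus, beside 32.0% and 9.83% of all genes. *Cebpb* (−1.03 ± 0.22) and *Klf15* (−0.78 ± 0.21), both glucocorticoid-responsive factors, fell with MLN0128, and *Cebpa* rose (0.80 ± 0.26). *Cebpa* measured 82.9, 126, and 51.9 FPKM against 40.9 to 50.5 with vehicle, and without the *Xist* libraries, the first 2 of these, its change was 0.16. The median change of the 16 regulators was then −0.20, beside −0.03 for all genes. *Nr0b2* measured 8.18, 17.3, and 11.6 FPKM with everolimus against 1.32 to 5.03 with vehicle (1.95 ± 0.46), and MLN0128 was lower than everolimus by 2.20. Without everolimus replicate 2 the everolimus change was 1.69 (adjusted p = 0.0582, limma), and without the *Xist* libraries the difference between the drugs was −2.21. *Nr3c1*, the glucocorticoid receptor, and *Creb1* rose with everolimus by 0.52 and 0.44. Among the 12 lipogenic genes, 2 fell and 1 rose with MLN0128, and 2 fell and 2 rose with everolimus. Without everolimus replicate 2, 1 fell and 0 rose with everolimus, beside 11.4% of all genes. From MLN0128 replicate 3 alone the median change of the lipogenic genes was −0.32, beside −0.03 for all genes. *Me1*, malic enzyme, fell by 1.26 and 1.23, *Pklr*, liver pyruvate kinase, by 0.89 and 0.99, *Mlxipl*, which encodes ChREBP, rose by 1.2 with MLN0128, and *Srebf1* rose by 0.93 with everolimus. *Mlxipl* measured 64.4, 46.4, and 25.8 FPKM with MLN0128 against 16.2 to 19.9 with vehicle, and its change was 0.50 without the *Xist* libraries. That of *Me1* was then −1.32. Without everolimus replicate 2 *Pklr* and *Srebf1* changed by −0.97 and 0.88 with everolimus and did not pass (adjusted p = 0.056 and 0.064, limma). *Elovl6* was lower with MLN0128 than with everolimus by 0.71, and by 0.91 without the *Xist* libraries. MLN0128, everolimus, and vehicle comparisons share the vehicle libraries, so their values are given side by side and not as independent evidence.

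Against NL, *Pck1*, *Fbp1*, and *G6pc* were lower and *Irs2* higher in the tumors of either drug group. With MLN0128, 4 of 10 genes were called, beside 37.2% of all genes, and 7 of 10 passed limma's moderated test, beside 72.6%. These passes were 2 higher and 5 lower. Under plain library totals 5 were higher and 2 lower, beside 9224 higher and 2259 lower of all genes. With everolimus, 5 of 10 were called, beside 35.3%, and 8 of 10 passed, beside 70.2%. Those passes were 2 higher and 6 lower, and under plain totals 5 higher and 3 lower, beside 8602 and 2321 of all genes. The log2 change from NL was −5.92 for *Pck1*, −4.59 for *Fbp1*, −1.72 for *G6pc*, and 1.76 for *Irs2* with MLN0128, and −5.47, −4.2, −2.12, and 1.49 with everolimus, all called. The *Pck1* and *Fbp1* calls held in all 19 other settings, whereas the *G6pc* call with MLN0128 held in 8 (5 of the 12 that left out a library, and −0.65 under plain totals). The *Irs2* call held in 18 with MLN0128, being lost without MLN0128 replicate 1, and in 14 with everolimus. Without both *Xist* libraries the MLN0128 value of *Irs2* was 1.25 and not called (treat adjusted p = 0.241, limma). *Igfbp1* was 2.15 above NL with MLN0128, which passed the moderated test but not treat (adjusted p = 0.0249 and 0.0876, limma; 1.99 and adjusted p = 0.164 without the *Xist* libraries), and 2.66 with everolimus, which was called (treat adjusted p = 0.0324, limma). Its everolimus value was 1.69 without NL replicate 1. The everolimus value of *Pck1* was −6.53 without everolimus replicate 2 and −4.65 without replicate 1, and it was called in each case. *Foxo3* with MLN0128 overlapped NL on the deposited scale, at 10.2 to 18.2 against 14.9 to 16.7 FPKM (−0.27, 95% interval −0.66 to 0.13). Under plain library totals *Foxo3* was above NL by 0.74 with MLN0128 (adjusted p = 0.00331, limma). *Pcx* overlapped NL with both drugs on the deposited scale. *Insr* was below NL with both drugs on the deposited scale (−0.45 and −0.46) and above it under plain library totals (0.50 and 0.37). For *Foxo1* the deposited scale gave −0.42 and −0.53 and plain totals 0.49 and 0.25.

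By FPKM, *Igfbp1* and *Pcx* were the first and second most abundant of the 10 genes in every tumor group, and *Irs1* was the lowest in every group. With MLN0128 the means ran *Igfbp1* 264, *Pcx* 100.5, *G6pc* 46.1, *Fbp1* 42.6, *Pck1* 20.9, *Foxo3* 13.2, *Irs2* 12.3, *Insr* 6.72, *Foxo1* 4.72, and *Irs1* 0.820 FPKM. The ranges of the neighbors *G6pc*, *Fbp1*, and *Pck1* overlapped, as did those of *Foxo3* and *Irs2*, whereas *Igfbp1* lay above *Pcx* in all 3 libraries. With everolimus the means ran *Igfbp1* 449, *Pcx* 139, *Fbp1* 57.9, *Pck1* 47.3, *G6pc* 31.8, *Irs2* 9.95, *Foxo3* 9.56, *Insr* 6.66, *Foxo1* 4.2, and *Irs1* 1.55 FPKM, with *Igfbp1* in replicate 1 below *Pcx*.

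The genes whose log2(FPKM + 1) followed these most closely were found over all 14397 tested genes, as a description in libraries that share scaling and groups. Over the 12 libraries, *Foxo1* and *G6pc* were among the 3 closest to each other (Pearson's r = 0.940). *Pck1* was followed by *St3gal5*, *Mettl7b*, and *Rarres2* (r = 0.988, 0.987, and 0.986), and *Igfbp1* by *Ripk4*, *Gdf15*, and *Ddit4* (r = 0.944, 0.894, and 0.888). The others closest to *G6pc* were *Naaladl2* and *4833411C07Rik* (r = 0.951 and 0.946), and those to *Foxo1* were *Rbm18* and *Maco1* (r = 0.953 and 0.944). Over the 9 tumor libraries the closest were *Ddi2*, *A630076J17Rik*, and *Nmnat3* for *G6pc* (r = 0.967, 0.953, and 0.925), *Gm4240*, *C330002G04Rik*, and *Ntn1* for *Pck1* (r = 0.941, 0.934, and 0.931), *Gm13073*, *Ern1*, and *Btg1* for *Igfbp1* (r = 0.971, 0.931, and 0.929), and *A630076J17Rik*, *Mettl25*, and *Nr5a2* for *Foxo1* (r = 0.961, 0.951, and 0.935). No gene was shared by the 12-library and 9-library lists of any of the 4.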

How the data were processed

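Total RNA from 12 mouse samples (n = 3 per group) was sequenced by Novogene. The deposited values are FPKM, which the authors computed from gene read counts; the submitters' processing notes name GRCm38 and FastQC 0.11.7, and the aligner and gene lengths are not given in the sources used here. For their own comparisons the authors used glmTreat of edgeR. Reads were recovered from the FPKM steps and gene lengths (98.2% to 98.8% of values under 20 reads came out whole within 0.1) and were used for depth and 1 alternative fit. The FPKM were 3-digit values that carried a scaling besides library size.

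A gene was tested if 3 or more libraries reached 0.5 FPKM, on log2(FPKM + 1), a scale that understates changes of low genes. All 12 libraries entered 1 fit in limma 3.58.1 (R 4.3.3) with a prior variance trend and 8 residual degrees of freedom. Calls used the treat function of limma, set to a minimum change of 1.5-fold, at a Benjamini-Hochberg adjusted p under 0.05 over all genes, with the two-sided moderated test beside it. The code was tested on simulated data. Intervals are 95%. Replicate labels do not say how the samples were separated, so p-values measure the spread between these samples.

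The members and lists were chosen with earlier results of these data known. Named genes were the 10 members, the up to 3 largest changes per list and comparison that passed the moderated test, and the 3 genes most correlated with *G6pc*, *Pck1*, *Igfbp1*, and *Foxo1*. Alternatives were another pseudocount, no or a stricter filter, plain library totals, the moderated test with a 1.5-fold minimum, the compared groups alone, voom on recovered reads, a replicate block, and each library left out. Leaving out both MLN0128 libraries with *Xist* RNA, and giving the wider lists without them or everolimus replicate 2, was chosen after seeing the data. Coordinates are GENCODE M21 gene models (GRCm38), and promoters are from RefSeq (GRCm38.p6). *Foxo6* and *Cd3e* of the lists had no row under those symbols. Marker lists not described in the text are given below. A gene of the lipogenic list that the naming rule takes is not reported here.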

Additional observations from a re-analysis of the deposited data

Results flagged for a closer look

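*Irs1* was singled out because it was the 1 gene of the 10 past the direct test between the inhibitors. That share is near the 9.53% of all genes that passed the same test. MLN0128 minus everolimus was −0.49 on the log2 scale (limma's moderated test, adjusted p = 0.0422; range over the 19 other settings 0.0209 to 0.155). The pass of *Irs1* held in 5 of those 19 settings. All 3 MLN0128 tumors were lower than all 3 everolimus tumors, and 27.7% of all genes did not overlap between these groups. From MLN0128 replicate 3 alone the difference was −0.30. Groups of 3 were too small for a check of single outlying samples.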

How the results depend on the processing

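The counts of members called by treat were 5, 0, 0, 0, 4, and 5 (vehicle against NL, MLN0128 and everolimus against vehicle, MLN0128 against everolimus, and MLN0128 and everolimus tumors against NL). With the moderated test and a 1.5-fold minimum in place of treat, the counts against vehicle and NL became 1 for MLN0128 and 9 for vehicle tumors. With each library left out they ran from 4 to 6, 0 to 0, 0 to 0, 0 to 0, 3 to 4, and 3 to 5, with 3 for everolimus tumors against NL without NL replicate 1 or everolimus replicate 2 or 3. Plain library totals turned the direction of *Insr* (0.014) and *Foxo1* (0.038) in vehicle tumors against NL. They also turned *Insr* (0.50), *Foxo1* (0.49), and *Foxo3* (0.74) in MLN0128 tumors, and *Insr* (0.37), *Foxo1* (0.25), and *Foxo3* (0.22) in everolimus tumors. Among values that passed under neither scaling, they turned *Pcx* in MLN0128 tumors (−0.46 to 0.61). The same held for *Irs1* in vehicle (−0.28 to 0.18) and MLN0128 tumors (−0.30 to 0.23). Over all genes the moderated passes in vehicle tumors against NL went from 5176 higher and 4753 lower to 8821 and 2182. In MLN0128 against vehicle they went from 2142 and 2464 to 3331 and 1823. In MLN0128 against everolimus they went from 575 and 797 to 1195 and 403, and in everolimus against vehicle from 544 and 871 to 713 and 825. These totals drop the authors' scaling, which differed between NL and tumors. Of the 1170 member values recomputed, 1039 kept their direction and side of the moderated threshold, 64 lost and 23 gained a pass, and 36 that had not passed changed sign.

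Over all genes, the calls in MLN0128 against vehicle were 306 and ran from 120 (without MLN0128 replicate 1) to 761 (voom on recovered reads), with 580 at a pseudocount of 0.1, 173 from these groups alone, 161 and 144 without vehicle replicate 1 or 3, and 36 without both libraries with *Xist* RNA, an alternative chosen after seeing the data. Those in everolimus against vehicle were 87, with 148, 38, and 170 under that pseudocount, these groups alone, and voom, and 54 without everolimus replicate 1. Between the drugs they were 6, with 2 to 19 as libraries were left out, 3 from these groups alone, and 13 by voom. The moderated test with a 1.5-fold minimum called 7613, 2775, 967, 763, 8212, and 7864 in the order above, against 4710, 306, 87, 6, 5359, and 5079 by treat. The cause of these differences was not tested.

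Replicate numbers did not pair the samples: over the 18 same-numbered pairs the correlation of deviations from group means ran from −0.29 to 0.15, 1 was above 0.1, and a sample was closest to its own number in 7 of 36 cases. With the replicate number as a block the counts of members called were 4, 0, 0, 0, 3, and 4. Depth limits *Irs1* most, whose 114 reads in a normal liver carry a counting error of 9.37%, above its spread of 7.27% in NL.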

Other observations

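Markers of other cell types also moved with the groups, and their part in the results above was not tested. The counts below stand beside the share of all genes past the moderated test. It was 69.0% in vehicle tumors against NL, 32.0% with MLN0128, and 9.83% with everolimus. The summed FPKM of 6 macrophage markers ran from 186 to 229 in NL, 58.3 to 92.2 in vehicle tumors, 23.5 to 34.2 under MLN0128, and 43.4 to 132 under everolimus, and in vehicle tumors against NL 4 fell and 1 rose (2 and 1 under plain library totals). The 5 endothelial markers summed to 23.3 to 31.7 in NL, 12.2 to 18.5 in vehicle tumors, 9.77 to 13.1 under MLN0128, and 10.5 to 17.7 under everolimus, and 2 fell (2 also rose under plain totals). The 5 stellate cell and fibroblast markers summed to 58.1 to 81.2 in NL and 20.5 to 50.9 in tumors, where 3 fell and 2 rose in vehicle tumors (2 and 2 under plain totals). The 5 biliary and progenitor markers summed to 40.2 to 43.6 in NL, 36.8 to 92.5 in vehicle tumors, 10.2 to 28.1 under MLN0128, and 17.2 to 61.8 under everolimus. Of the 4 tested, 3 rose in vehicle tumors, and 3 fell with each drug. The 4 lymphocyte markers found summed to 2.68 or less in every library, and 1 of them was listed at 0 in a library of NL and of vehicle tumors.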
